A study of Oryctolagus cuniculus with 8 samples.

Results

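PMEL, TYRP1, MITF, KIT, TYR, DCT, MLANA, SOX10, EDNRB and OCA2 are genes by which pigment cells are recognised, and they were followed here in sorted cells of an albino rabbit. The members were chosen by name, and 9 of the 10 had an entry among the 20922 gene entries of the expression table. SOX10 was not analysed here. All 9 were among the 10012 genes tested.

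Limbal epithelial cells of New Zealand white rabbits were stained with the DNA dye Hoechst 33342 and sorted into a side population (SP), which exports the dye and stays dim, and the remaining non-side-population (NSP) cells. Total RNA was read on an Ion Proton sequencer, for 4 samples of each kind. Both groups share the breed, the tissue and the dye, and differ in the sort gate. The columns of the table name the group only, so the libraries are numbered here in column order, and the labels do not say whether they came from separate animals. P-values therefore reflect only how far these samples scatter, and that scatter may be technical.

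Melanocytes sit among the basal epithelial cells of the limbus, where the cornea meets the conjunctiva, and pass pigment to them. Melanin is made in the melanosome, an organelle built on fibres of PMEL, in which tyrosinase (TYR) oxidises tyrosine and TYRP1 and DCT act on later intermediates. MITF is the transcription factor that drives these genes, and the receptors KIT and EDNRB carry signals for the survival and migration of the lineage. In albino rabbits the lesion lies in the tyrosinase gene, so melanocytes are present without making pigment. The read counts do not show whether the tyrosinase made from this RNA was active.

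Levels are CPM, reads scaled to a common library size. SP libraries held between 15553295 and 18931836 exon reads and NSP libraries between 20445565 and 23529101. Differences are given as log2 fold changes from limma-voom, positive where SP is higher, each ± its standard error, and a gene is called at a Benjamini-Hochberg adjusted p under 0.05 over all genes tested. Of the 9 melanocyte genes 8 were higher in SP and none was lower, with a median log2 fold change of 5.13, against 0.12 over all tested genes. In all genes 17.7% were called higher in SP and 13.0% lower. In bulk samples, fewer cells of a type and less RNA per cell cannot be told apart. The filter on low values weighs on these counts: PMEL, TYRP1, MITF, KIT and OCA2 were above it in all 4 NSP libraries, and 4 of these 5 were called. TYR, DCT, MLANA and EDNRB were above it in all 4 SP libraries, but in only 1, 3, 2 and 2 NSP libraries in turn. Passing in that way favours genes that are higher in SP without forcing a call, so these calls carry less weight.

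Tyrosinase, the rate-limiting enzyme of melanin synthesis, had nearly all of its reads in the SP libraries, 25181 against 153 in NSP. TYR stood at 658, 116, 469 and 147.5 CPM in SP libraries 1 to 4. In NSP libraries 1 to 4 it had 0, 4, 0 and 149 reads, or 0, 0.185, 0 and 7.2 CPM, and a count of 0 allows up to 3 reads. The groups do not overlap, and within NSP nearly all TYR reads lie in library 4. The mean of SP was 188 times that of NSP. The fitted log2 fold change was 10.64 ± 2.13 (limma-voom adjusted p = 0.00422). It varied with the method, with 7.98 by limma-trend and 8.61 with sample quality weights. It also varied with the libraries used, with 9.52 and 9.75 without NSP library 1 or 3, and 12.42 without NSP library 4.

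TYRP1, the stabiliser and partner of tyrosinase, was the most abundant of the genes, by reads and per length. It stood at 7791, 1065, 4407 and 920 CPM in the SP libraries and at 104, 131, 73.9 and 137 CPM in the NSP libraries. Every SP library lies above every NSP library, and TYRP1 alone took 0.879% of all exon reads in SP library 1. On the log2 scale SP was higher by 4.47 ± 0.61 (limma-voom adjusted p = 0.000598).

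DCT, dopachrome tautomerase, stood at 581, 79.0, 276 and 81.45 CPM in SP. In NSP it had 12, 99, 0 and 164 reads, or 0.540, 4.57, 0 and 7.925 CPM. SP libraries 1 and 3 are the high ones and no NSP library reaches an SP library. SP was higher by a log2 fold change of 7.70 ± 1.77 (adjusted p = 0.00855, limma-voom). That value was 6.37 by limma-trend, 5.91 with quality weights, 6.06 without NSP library 3, and 8.51 and 8.75 without NSP library 2 or 4.

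PMEL, the protein of the melanosome's fibres, stood at 3285, 474, 2382 and 1232 CPM in SP and at 61.0, 32.4, 15.9 and 96.1 CPM in NSP. The groups do not overlap, although SP values alone span 6.93-fold. SP exceeded NSP by a log2 fold change of 5.13 ± 0.66 (adjusted p = 0.000452, limma-voom), or 4.26 with quality weights.

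MLANA, a small membrane protein of early melanosomes that binds PMEL, stood at 514, 76.8, 370 and 60.3 CPM in SP. In NSP it had 4, 42, 0 and 84 reads, or 0.18, 1.94, 0 and 4.06 CPM. NSP libraries 2 and 4 hold most of the NSP reads of MLANA and also of DCT. The log2 fold change of MLANA was 8.57 ± 2.06 (limma-voom adjusted p = 0.0106), against 6.95 by limma-trend, 6.98 with quality weights, 7.23 without NSP library 3, and 9.28 and 9.61 without NSP library 2 or 4.

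OCA2, an anion channel of the melanosome membrane, was the exception. It stood at 146, 7.54, 82.9 and 45.0 CPM in SP and at 12.2, 35.5, 36.6 and 27.6 CPM in NSP. The groups overlap, since SP library 2 lies below all NSP libraries. The log2 fold change of 0.81 ± 0.82 was not called (limma-voom adjusted p = 0.488). Without SP library 2 it was 1.69 and was called (adjusted p = 0.0304). It was 0.16 with quality weights, 0.22 without SP library 1 and 0.31 without NSP library 1.

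**Figure D1:**
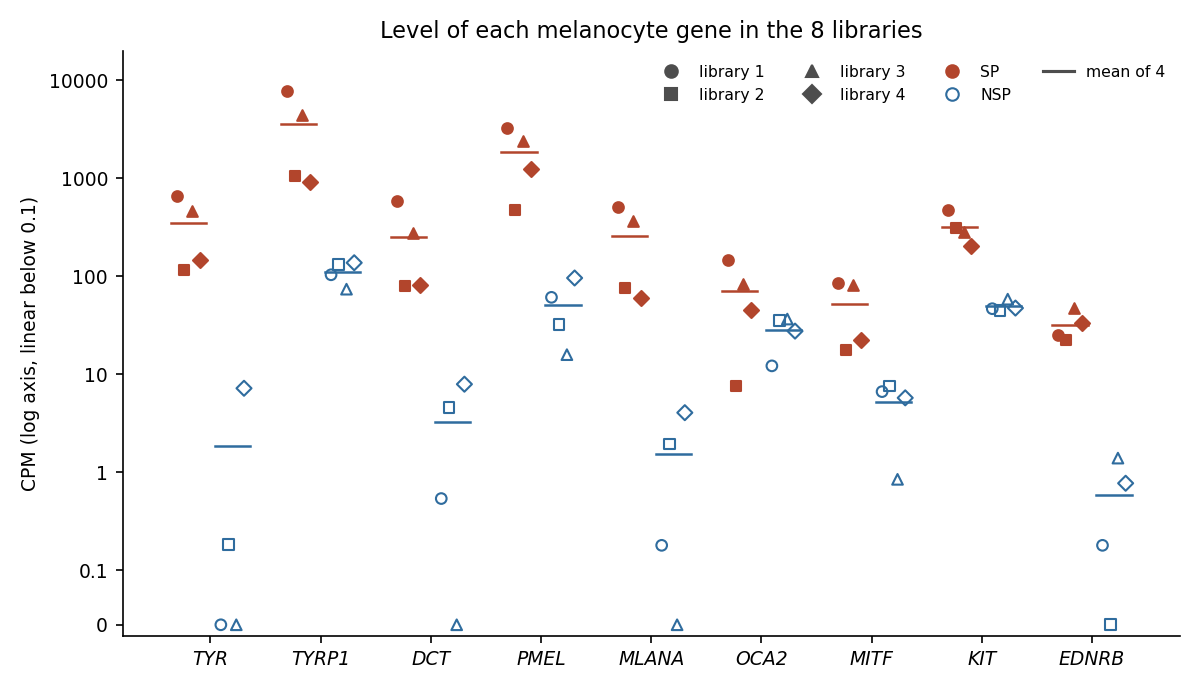
CPM of each of the 9 genes in each library on a log axis that is linear below 0.1, with filled red symbols for SP, open blue symbols for NSP, symbol shape for the library number and a bar for the mean of 4. SP symbols lie above all NSP symbols in 8 genes and overlap them in OCA2, where SP library 2 is at 7.54 CPM.

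MITF, the regulator of the lineage, was, per length, next to the least abundant of the genes in SP. It stood at 84.5, 17.8, 81.9 and 22.6 CPM in SP and at 6.66, 7.61, 0.848 and 5.75 CPM in NSP. The groups do not overlap, and NSP library 3, with 17 reads, is the lowest. The log2 fold change was 3.34 ± 0.86 (limma-voom adjusted p = 0.0142). It was 2.63 without NSP library 3 and 2.68 with quality weights, still called in both.

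KIT, the receptor of stem cell factor, had the smallest standard error of the genes. It stood at 471, 310, 283.5 and 202 CPM in SP and at 46.7, 44.9, 58.4 and 47.4 CPM in NSP. Its NSP values lie close together, and its SP values span 2.335-fold, against 8.47-fold for TYRP1. The log2 fold change was 2.62 ± 0.28 (limma-voom adjusted p = 0.000213). EDNRB, the endothelin receptor of melanoblasts, which vessels and other tissues also use, stood at 24.9, 22.3, 47.5 and 33.1 CPM in SP and at 0.18, 0, 1.40 and 0.773 CPM in NSP. SP library 3 is the highest for EDNRB, where library 1 is the highest for the other 8 genes. Its log2 fold change was 6.85 ± 1.08 (limma-voom adjusted p = 0.00124), with 5.03 by limma-trend, 5.66 without NSP library 2 and 7.63 without NSP library 3.

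SP libraries lay above all NSP libraries in 8 of the 9 genes. Among all tested genes this held for 18.8%. TYR, DCT, MLANA and EDNRB were above the filter in all SP libraries but not in all NSP libraries, which favours such a lack of overlap. Of the genes above it in all NSP libraries, PMEL, TYRP1, MITF and KIT had no overlap and OCA2 did. The authors' deposited table gives an EDGE test for the same genes, with fold sizes higher in SP of 32.4 for PMEL, 28.5 for TYRP1, 169 for TYR, 70.2 for DCT and 147.5 for MLANA. In the authors' deposited table MITF was 8.85-fold, KIT 5.82-fold and EDNRB 49.5-fold higher in SP. For OCA2 the authors' deposited table has a fold of 2.29 and a corrected p of 0.257069.

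Levels of different genes can be set side by side only per length. As RPKM (CPM per kilobase of deposited exon length), the means in SP ran from TYRP1 at 1411 through PMEL at 867, MLANA at 232, TYR at 218, DCT at 161, KIT at 64.8, OCA2 at 22.4 and MITF at 10.1 to EDNRB at 8.23. The ranges of all neighbours in this order overlap. Within libraries, PMEL was above MLANA, TYR above DCT and KIT above OCA2 in 4 of 4 SP libraries, while MLANA and TYR, and MITF and EDNRB, were each in that order in 2 of 4. In NSP the RPKM order began with TYRP1 at 44.4, PMEL at 24.1, KIT at 10.1 and OCA2 at 8.885. DCT at 2.07, MLANA at 1.40, TYR at 1.16, MITF at 1.02 and EDNRB at 0.151 followed.

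The melanosome genes did not keep the same proportion to each other in both groups. For each read of TYR, the SP libraries held 11.8, 9.16, 9.41 and 6.24 reads of TYRP1. NSP library 2 held 711 reads of TYRP1 per TYR read and NSP library 4 held 19.1, while NSP libraries 1 and 3, without a TYR read, held at least 768 and 494 when 3 reads are set for the 0. NSP library 4 is the nearest to the SP libraries. For DCT the SP libraries had 13.42, 13.5, 15.9 and 11.3 TYRP1 reads per read. The NSP libraries had 192 and 28.7 in libraries 1 and 2, at least 494 in library 3 and 17.3 in library 4. PMEL differed less, with 2.37, 2.25, 1.85 and 0.747 TYRP1 reads per PMEL read in SP and 1.70, 4.05, 4.66 and 1.43 in NSP, and the groups overlap. These ratios were looked at after the values were seen and were not tested.

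**Figure D2:**
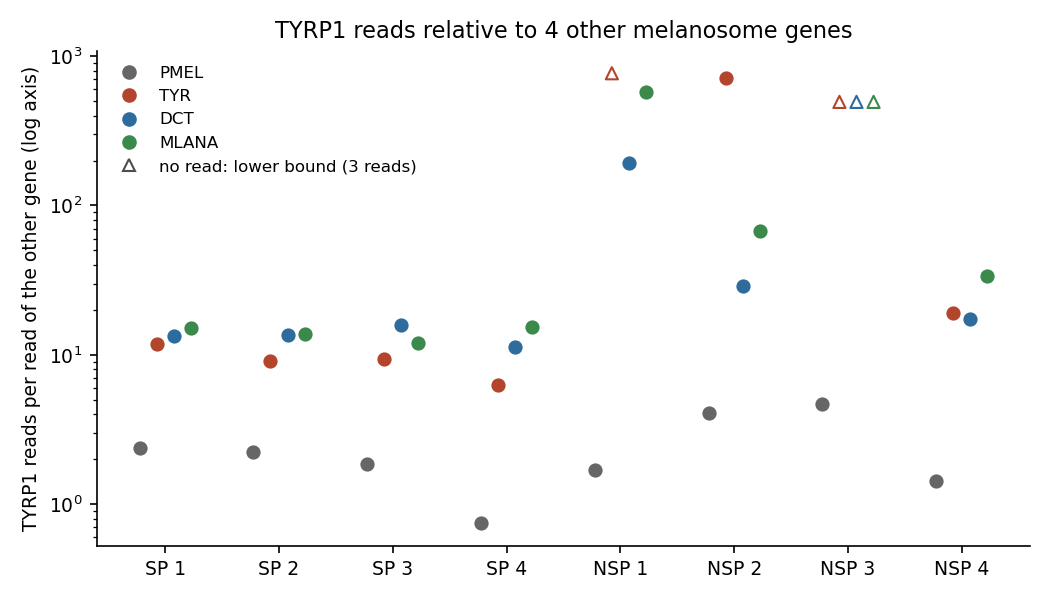
Reads of TYRP1 per read of PMEL, TYR, DCT and MLANA in each library on a log axis, with triangles for lower bounds where the other gene had no read and 3 reads were set instead. For TYR, DCT and MLANA all SP points lie below all NSP points, with NSP library 4 the nearest, and for PMEL the groups overlap.

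Other genes of the melanosome split into those that followed the enzymes and those that did not. Of 13 listed genes of melanosome enzymes and structure, 11 were tested, 8 rose in SP, 0 fell and 3 were not called. These counts include genes described above: TYR, TYRP1, DCT, PMEL and MLANA among the risers, and OCA2 among those not called. SLC45A2, a transporter of the melanosome that affects its pH, stood at 75.7, 7.596, 27.4 and 18.95 CPM in SP and between 0 and 0.532 CPM in NSP, with a log2 fold change of 8.42 ± 1.85 (adjusted p = 0.0067, limma-voom), which was 5.30 by limma-trend, 7.08 with quality weights and 9.43 without NSP library 4. Outside the naming rule, the other risers were SLC24A5, a cation exchanger of pigment cells (8.59), and CD63, a tetraspanin of late endosomes found in many cell types (0.82). SLC24A5 lost its call without NSP library 1, 2 or 3 (adjusted p up to 0.0617), and CD63 without NSP library 2 or 4 (up to 0.0545) and with upper-quartile factors. The SLC24A5 value was 6.11 by limma-trend, 7.44 with quality weights, and 7.48, 9.43, 7.72 and 9.59 without NSP libraries 1 to 4 in turn. GPNMB, a PMEL-related glycoprotein that macrophages also make, stood at 149, 26.5, 79.4 and 32.7 CPM in SP and at 158, 116, 58.25 and 107 CPM in NSP. Its log2 fold change of -0.86 was not called (adjusted p = 0.237), and it was called at -1.33 without SP library 1. The copper pump ATP7A, also named outside the rule, was not called at 0.48.

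Transcription factors of the lineage moved in both directions. Of 12 listed, 8 were tested: 5 rose, MITF among them, 2 fell and 1 was not called. PAX3, which acts upstream of MITF, stood at 105.8, 30.4, 86.4 and 33.7 CPM in SP and had no read in NSP libraries 1 to 3, with 48 reads (2.32 CPM) in library 4. Its log2 fold change was 9.55 ± 1.71 (limma-voom adjusted p = 0.00244), with 6.18 by limma-trend, 7.94 with quality weights, 8.86 without NSP library 1 and 11.21 without NSP library 4. LEF1, a Wnt effector that T cells also use, rose by 8.10 ± 1.25 (adjusted p = 0.00113) and was highest in SP library 4. Its value was 6.19 by limma-trend, 7.07 without NSP library 3 and 8.99 without NSP library 2. SOX5 rose by 1.81 ± 0.53, a call that was lost without NSP library 1, 3 or 4 (adjusted p up to 0.0807). TBX2, named outside the rule, rose by 4.61 with overlapping groups and 149 SP reads, and lost its call without any 1 of SP libraries 1, 3 and 4 and NSP libraries 2, 3 and 4 (adjusted p up to 0.127). The TBX2 value was 1.77 by limma-trend, 5.53 without SP library 2 and 5.73 without NSP library 1. SNAI2, a factor of neural crest and of basal epithelium, fell by 2.70 on the log2 scale, and TFAP2A, shared with epithelium, fell by 1.42. SOX9 was not called (-0.64). Epithelial markers moved with them: all 12 of the limbal and corneal epithelium list fell in SP, and their summed level was 665.5 to 6267 CPM in SP and 23720 to 42410 CPM in NSP. Their part in these falls was not tested.

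Of the receptors tested, KIT and EDNRB were the ones called higher in SP. Of 9 listed, 6 were tested: 2 rose, 3 fell and ERBB3 was not called. MET, the receptor of hepatocyte growth factor, stood at 64.15, 48.1, 57.9 and 61.2 CPM in SP and at 161, 208, 123.5 and 192 CPM in NSP, and fell by 1.55 ± 0.24 on the log2 scale (adjusted p = 0.00108 in limma-voom). The neurotrophin receptor NGFR, at 6.85 to 46.5 CPM in SP and 77.8 to 109.5 CPM in NSP, fell by 2.12. TYRO3, a receptor kinase that promotes MITF expression, fell by 1.96. ERBB3, a neuregulin receptor, stood at 259, 348, 51.2 and 65.8 CPM in SP and at 206, 162, 113 and 220 CPM in NSP, with a log2 fold change of -0.35 (adjusted p = 0.676). SP libraries 1 and 2 were high and libraries 3 and 4 low for ERBB3.

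No ligand for these receptors was called higher in SP. Of 10 listed, 6 were tested: none rose, 3 fell and 3 were not called. EDN2, a ligand of EDNRB, was at 2.23, 0.620, 0.753 and 2.79 CPM in SP and at 29.9, 24.7, 26.6 and 24.3 CPM in NSP, a log2 fold change of -4.34 ± 0.53 (adjusted p = 0.00037, limma-voom). NRG1, a ligand of ERBB3, fell by 5.34 ± 1.17 on the log2 scale. Its value was -3.93 without SP library 3, -6.20 without SP library 1, -6.49 without SP library 4, -5.99 with quality weights and -3.65 by limma-trend. EDN1, the other endothelin measured, was abundant in both groups, at 175 to 373 CPM in SP and 194 to 448 CPM in NSP, and was not called (-0.32, adjusted p = 0.503). KITLG, the ligand of KIT, was scarce in both, at 0.557 to 3.28 CPM in SP and 0.598 to 2.45 CPM in NSP (-0.17, adjusted p = 0.884). POMC, the precursor of melanocyte-stimulating hormone, was not called either (0.46, adjusted p = 0.843). HGF, FGF2 and ASIP were too low to test, with 3, 44 and 7 SP reads and 2, 0 and 24 NSP reads.

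**Figure D3:**
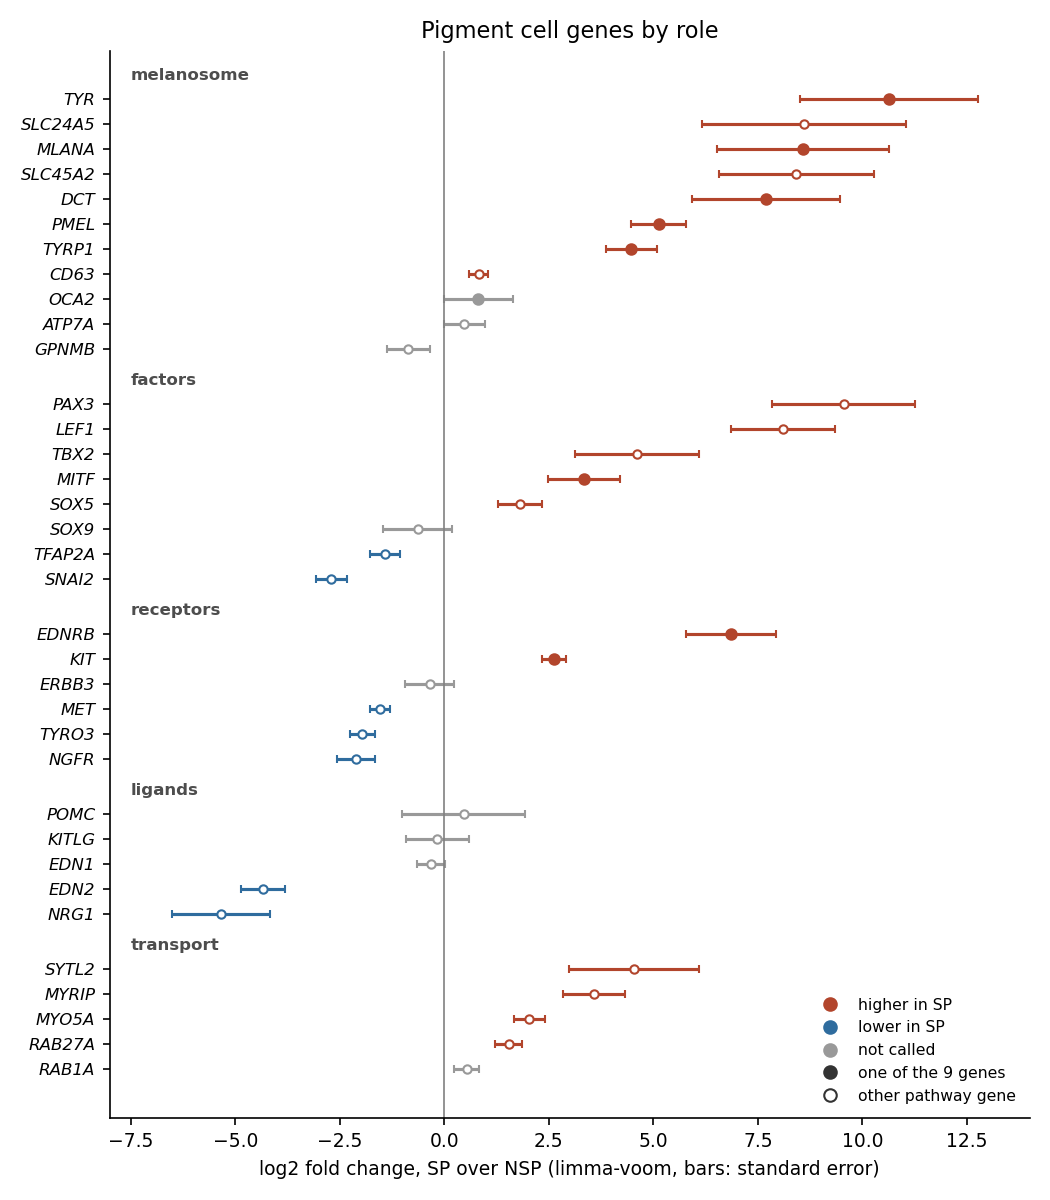
Log2 fold change of SP over NSP with its standard error for the genes of 5 roles that are reported here, with filled points for the 9 genes, open points for other genes of the lists, red for called higher in SP, blue for called lower and grey for not called. Of the melanosome genes, TYR lies farthest to the right at 10.64 and GPNMB lies left of 0 at -0.86, while the ligands EDN2 and NRG1 lie at the left, down to -5.34.

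Of 20 listed genes of melanosome biogenesis (the Hermansky-Pudlak, BLOC and AP-3 complexes), 13 were tested: 1 rose, 2 fell and 10 were not called, with a median log2 fold change of -0.16, where 17.7% of all tested genes rose and 13.0% fell. HPS3 rose by 1.13, a call lost without any 1 library other than SP library 4 and with upper-quartile factors (adjusted p up to 0.103). RAB32, a small GTPase that directs cargo to melanosomes, fell by 1.82 ± 0.35 (limma-voom adjusted p = 0.00341). BLOC1S1 fell by 0.91, a call lost without SP library 2 or 3 or NSP library 1 or 4. RAB38, the close relative of RAB32, was not called at -1.03, with 23.9, 3.20, 15.8 and 7.25 CPM in SP.

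Most tested genes that move finished melanosomes to the cell edge rose. Of 7 listed, 5 were tested: 4 rose and 1, RAB1A, was not called (0.53), where 17.7% of all tested genes rose. RAB27A, the GTPase on the melanosome, stood at 162, 116, 191 and 116 CPM in SP and at 61.6, 45.4, 73.5 and 28.4 CPM in NSP, a log2 fold change of 1.54 ± 0.32 (adjusted p = 0.00491, limma-voom). MYO5A, its actin motor, rose by 2.03 ± 0.37. MYRIP, an adaptor for another myosin, rose by 3.58 ± 0.74 and was highest in SP library 4, at 166 CPM, with 2.71 under quality weights. SYTL2, a RAB27A effector, rose by 4.54 ± 1.56, a call lost without SP library 2 or 3 or any 1 NSP library (adjusted p up to 0.121) and with upper-quartile factors, library totals alone or no filter. The SYTL2 value was 5.38 with quality weights and 5.46 without SP library 4, which held 4.74 CPM against 75.3 to 152 CPM in the other SP libraries. RAB27A also serves the granules of T and NK cells, whose 8 tested markers all rose in SP, with a summed level of 604 to 2123 CPM in SP and 3.05 to 7.83 CPM in NSP. Their part in the rise was not tested.

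Targets and relatives of MITF were mixed: of 12 listed, 10 were tested, 4 rose, 2 fell and 4 were not called. TRPM1, the cation channel whose gene hosts a melanocyte microRNA, stood at 190, 22.7, 113 and 37.4 CPM in SP and at 1.53, 0.877, 5.785 and 1.79 CPM in NSP, a log2 fold change of 5.09 ± 1.14 (adjusted p = 0.00746, limma-voom). CTSK, a lysosomal protease, rose by 2.26 ± 0.52 and BCL2, an inhibitor of cell death, by 2.22 ± 0.51. TFEC, a relative of MITF found in macrophages, had 192 reads in SP and 3 in NSP, a ratio of 76.6 with a 95% counting interval of 25.8 to 375. CDKN1A, a cell cycle inhibitor, fell by 1.08, a call lost without NSP library 2. CAPN3 fell by 1.91, a call lost without any 1 of SP libraries 1 and 3 and the 4 NSP libraries. TFE3, another relative, was not called (-0.25), nor was PPARGC1A (-1.11).

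Other cells can hold some of these transcripts, and their markers were counted in the same libraries. For the pigment epithelium of iris, ciliary body or retina, 4 of 10 listed markers were tested, 1 rose and 3 were not called. OTX2, a defining factor of that epithelium, had 0 reads in SP and TTR had 4. RPE65, its retinoid isomerase, was not called (3.04, limma-voom adjusted p = 0.225), with 11.1, 1.09, 2.90 and 0.0697 CPM in SP. LRAT was not called (-2.97, adjusted p = 0.0575) and RDH5 was not either (-0.43). LRAT was called lower with median-ratio factors (-3.13), upper-quartile factors (-3.17), limma-trend (-2.59) and quality weights (-3.93), and without NSP library 3 (-3.67). The riser was MYRIP, which the transport list also holds. The summed list was 36.95 to 176 CPM in SP and 10.5 to 60.2 CPM in NSP. MYRIP, at 39.3, 33.6, 110 and 166 CPM in SP libraries 1 to 4, made up most of the SP sum. LRAT, the largest part of the NSP sum, was at 4.79 to 48.7 CPM in NSP and 0.860 to 9.89 CPM in SP.

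Mast cells carry KIT and MITF too. Of 11 listed mast cell markers, 4 were tested and 3 rose. MS4A2, the beta chain of the IgE receptor, had 817 reads in SP and 1 in NSP, a ratio of 978 with a 95% counting interval of 175 to 38680. FCER1A, its alpha chain, had 206 SP reads, 9.35 CPM in SP library 1 and 0 in library 4, and no NSP read, which puts it at least 82.2-fold higher in SP against 3 reads over the group. The protease genes CPA3 and CMA1 had 7 and 1 reads in SP. GATA2, which endothelium also expresses, made up most of the summed level of 47.9 to 260 CPM in SP and rose by 7.69 ± 1.62, with a peak of 256 CPM in SP library 4. It was 6.59 by limma-trend, 8.29 without SP library 1 and 7.05 without SP library 4. HDC rose by 4.89, with overlapping groups, a call lost without NSP library 2, 3 or 4 (adjusted p up to 0.0943), and was 1.89 by limma-trend, 5.54 with quality weights, 5.58 without SP library 3 and 6.05 without NSP library 1. How much of KIT or MITF came from mast cells was not tested.

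Schwann cells come from the neural crest as melanocytes do. Of 15 listed Schwann cell and nerve markers, 10 were tested: 5 rose, 1 fell (NGFR) and 4 were not called. PMP22, a membrane protein of peripheral myelin, stood at 199, 75.5, 163 and 221 CPM in SP and at 2.11, 3.37, 0.0499 and 2.80 CPM in NSP, a log2 fold change of 7.06 ± 1.04 (adjusted p = 0.000896, limma-voom). It was 6.21 by limma-trend, 5.84 with quality weights and 5.80 without NSP library 3. The adhesion molecule NCAM1 rose by 5.07 ± 0.98. GFRA3, named outside the rule, rose by 4.12 but lost the call without any 1 library other than SP library 1. The GFRA3 value was 2.61 by limma-trend, 2.73 without NSP library 1 and 4.79 without SP library 1. CDH19, a marker of Schwann cell precursors, had 50 SP reads and 1 NSP read, and SCN7A had 5 and 0. The summed list was 732.5 to 1552 CPM in SP and 458 to 730 CPM in NSP.

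The endothelial list rose in all 8 of its tested markers, with a sum of 1100, 3806, 4302 and 10600 CPM in the SP libraries and 8.93 to 15.3 CPM in NSP. Of the tested myeloid genes 5 of 6 rose and of the stromal ones 6 of 7, with sums of 1008 to 2361 and 215 to 390 CPM in SP. LAPTM5 alone, at 671 to 2006 CPM, made up most of the myeloid sum in SP. The macrophage genes C1QA, C1QB, C1QC and MARCO were too low to test. They had 0, 0, 5 and 8 SP reads and 22, 9, 14 and 87 NSP reads in turn. EDNRB is also a gene of vessels and stroma, and its highest SP library was number 3, as for the T and NK, myeloid and stromal sums, while the endothelial sum peaked in library 4. The part of these cells in the EDNRB level was not tested.

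The SP libraries differed in how much RNA of the 9 genes they held. The 9 genes took 1.53%, 0.223%, 0.825% and 0.253% of all exon reads in SP libraries 1 to 4, and 0.0183% to 0.0331% in NSP libraries. Their summed level was 13550, 2168, 8400 and 2743 CPM in SP and 231, 258, 187 and 334 CPM in NSP. PMEL, TYRP1, MITF, TYR, DCT, MLANA and OCA2 were all higher in SP libraries 1 and 3 than in libraries 2 and 4, which 21.5% of all tested genes and 25.0% of those called higher in SP also were. This order was read off the values and was not tested. KIT and EDNRB did not have it. In the melanosome list 10 of 11 genes had it, but TYR, TYRP1, DCT, PMEL, MLANA and OCA2 among them are genes it was read from. Of the list's other genes, GPNMB, SLC45A2, SLC24A5 and ATP7A had it and CD63 did not. In the endothelial, T and NK, myeloid, stromal and epithelial lists none had it. In the Schwann cell list 4 of 10 had it, S100B and NCAM1 among them. The spread between the highest and lowest SP library was 19.4-fold for OCA2, 8.52-fold for MLANA, 8.47-fold for TYRP1, 4.74-fold for MITF and 2.13-fold for EDNRB.

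**Figure D4:**
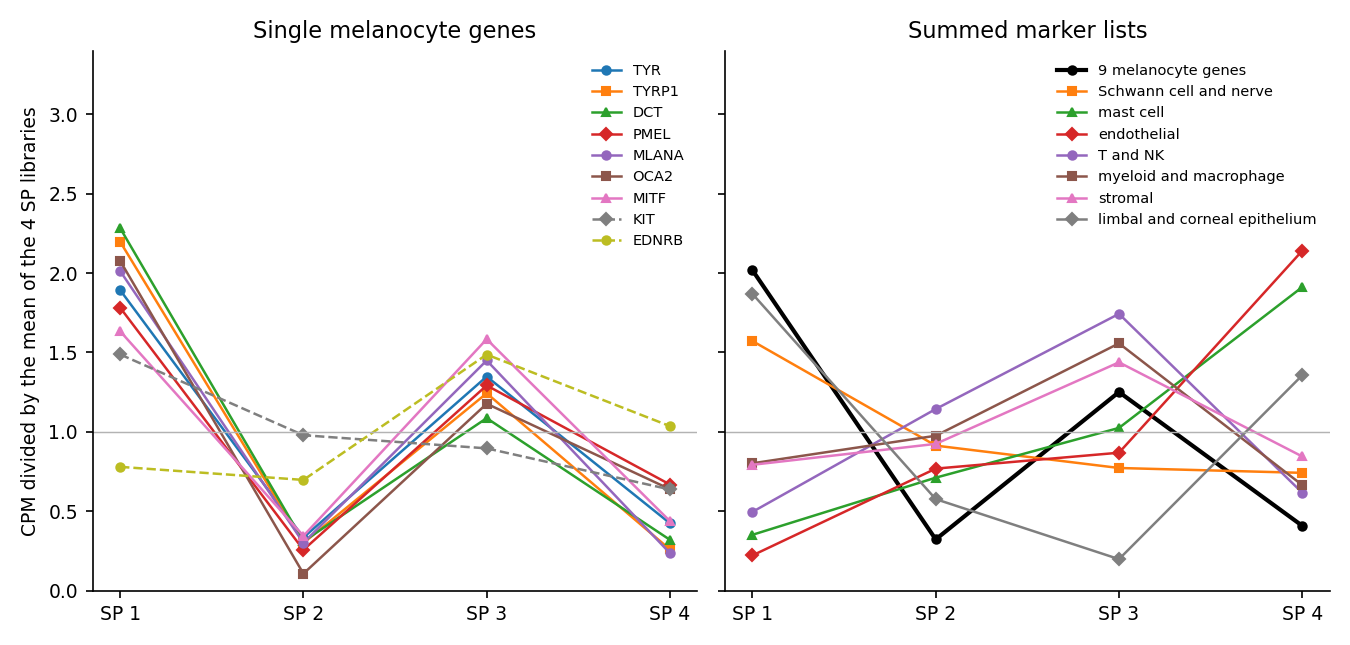
Level in each SP library divided by the mean of the 4 SP libraries, for single melanocyte genes (left, with KIT and EDNRB dashed) and for the summed CPM of marker lists (right, with the 9 melanocyte genes in black). The melanocyte sum is high in libraries 1 and 3 (13550 and 8400 CPM) and low in 2 and 4, while the endothelial sum climbs to 10600 CPM in library 4 and the T and NK and stromal sums peak in library 3.

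Genes with the pattern most like that of a melanocyte gene were found by the root mean square difference of log2(CPM + 0.5), centred over the 8 libraries. Nearest to TYRP1 were IGSF11, an adhesion protein of the immunoglobulin family (0.31), the semaphorin receptor PLXNC1 (0.33) and the homeobox gene ALX1 (0.33). ALX1 stood at 39.1, 6.10, 27.6 and 5.365 CPM in SP and had no NSP read, at least 570-fold higher in SP against 3 reads over the group. IGSF11 had 947 SP reads and 3 NSP reads, a ratio of 378 with a 95% counting interval of 129 to 1836. Where NSP counts are near 0 the offset of 0.5 sets the distance, so a small distance need not mean a like fold change. The limma-voom log2 fold changes of IGSF11 and ALX1 were 7.94 and 9.22, against 4.47 for TYRP1. By limma-trend, which uses that offset, they were 4.19 and 4.85. Nearest to PMEL were SLC6A17 (0.49), QPCT, glutaminyl cyclase (0.50), and SLC45A2 (0.55). QPCT stood at 250, 75.4, 227 and 160.5 CPM in SP and 2.74, 2.77, 1.845 and 7.15 CPM in NSP. Nearest to MITF were GATM, an enzyme of creatine synthesis (0.41), the ephrin receptor EPHA5 (0.54) and the mitotic kinesin KIF11 (0.62), with EPHA5 itself not called (adjusted p = 0.054) and KIF11 losing its call without SP library 3 or NSP library 1, 3 or 4 (adjusted p up to 0.0714). Nearest to KIT were the chaperone DNAJC3 (0.23), the sorting nexin SNX16 (0.23) and the engulfment adaptor GULP1 (0.25). GULP1 was near 0 in NSP, and its log2 fold change was 5.32 by limma-voom and 2.79 by limma-trend, against 2.62 for KIT by limma-voom. DNAJC3 stood at 223, 90.0, 141 and 82.2 CPM in SP and at 18.2 to 23.4 CPM in NSP.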

How the data were processed

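The deposited table is fixed-width text (163 fields of 8 characters, 6 stacked blocks, 20922 gene entries) whose neighbouring values touch, so it was read by character position. Its whole-number field for each library was taken as the count of exon reads, and the means the authors deposited for each group follow from these values to within 0.05. Another 143 per-library fields were not used here. Fold changes and corrected p-values in the authors' deposited table are from EDGE, per the file headers. Aligner, build and annotation: not given in the sources used here. Names are cut at 8 characters, and 10916 entries have a complete or unique name.

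TMM factors (trims of 30% and 5%) were computed here. A gene was tested where 4 libraries reached a CPM of 0.508 (the median library's value of 10 reads) and all libraries together 15 reads. The test was limma-voom with group as the only term (limma 3.58.1 in R 4.3.3, offset of 0.5 counts), two-sided, with Benjamini-Hochberg adjustment and a threshold of 0.05. The procedure was tested on simulated data. Tables were made in Python 3.11.15 with pandas 2.3.3, NumPy 2.4.6 and SciPy 1.17.1, figures with matplotlib 3.10.9. No 2 libraries of a group agree within sampling noise (chi-square per degree of freedom at least 53.6). Counting intervals are exact at 95% and cover counting error only, since no molecular identifiers are recorded.

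The genes, the 7 pigment lists and the 8 cell type lists were chosen with earlier results of these data known, so their direction is no independent evidence. Named are all 9 genes, every tested receptor and ligand, up to 4 genes per direction with the smallest p of each other pigment, pigment epithelium, Schwann cell or mast cell list, and the 3 nearest genes in pattern of TYRP1, PMEL, MITF and KIT. A few genes covered by this rule are counted with their lists but not reported by name. Other cell type lists are given as counts and sums. The alternatives tried were other scaling (median-ratio factors, upper-quartile factors, library totals alone), 2 other filters, limma-trend on log2(CPM + 0.5), sample quality weights and leaving out each library.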

Additional observations from a re-analysis of the deposited data

Results flagged for a closer look

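In groups of 4 libraries, 15 of the 154 sets of values looked at had 1 library far from the other 3. The mark was Dixon's 95% critical value, which chance alone passes in about 1 in 20 sets of normally distributed values. A set with reads in only 1 library is flagged whatever its count, as for PAX3, TFEC, MS4A2, HDC, IGSF11 and TBX2 in NSP. The number of flags therefore cannot be compared with that rate. In NSP library 4, TYR stood at 7.2 CPM against 0 to 0.185 in the others, SLC45A2 at 0.532 against 0 to 0.0450, and PAX3 at 2.32 against 0. TFEC and IGSF11 stood at 0.145 CPM in that library and MS4A2 at 0.0483, each against 0 in the other NSP libraries and from 1 to 3 reads. NSP library 1 held the only NSP reads of HDC (0.945 CPM) and of TBX2 (0.720 CPM). In SP library 1, SOX5 was at 23.8 CPM against 7.70 to 9.36 and TFAP2A at 174.2 against 53.8 to 63.9. In SP library 4, LEF1 was at 125.3 CPM against 45.3 to 58.3 and TFE3 at 174.2 against 111.6 to 114.1. SLC18A2, a monoamine transporter of mast cells, was at 7.905 CPM in SP library 3 against 0.435 to 1.29. HPS6 was lowest in SP library 2, at 2.43 CPM against 4.95 to 5.43, and TFE3 was lowest in NSP library 3, at 133.2 CPM against 153.8 to 156.1.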

How the results depend on the processing

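Of the 9 melanocyte genes 8 were called higher in SP under each of the 7 other settings and without any 1 library, except that 9 were called without SP library 2. Their log2 fold changes kept their sign in all of these. Over all tested genes 3075 were called, and 2266 to 3851 without 1 library. The median log2 fold change of all genes shifted by -0.12 with median-ratio and by -0.18 with upper-quartile factors. The calls split into 1774 higher and 1301 lower, but into 1439 and 1627 with upper-quartile factors. Among the other named genes none that was called changed sign, 57 values lost a call and 20 gained one. Those that changed sign were not called. Leaving out 1 library, SOX9 ranged from -1.28 to 0.09, ERBB3 from -0.82 to 0.10, KITLG from -0.62 to 0.07, POMC from -0.39 to 2.01, PPARGC1A from -2.19 to 0.66 and RDH5 from -2.04 to 0.31, and SOX9 was 0.08 with quality weights. The cause was not tested. No paired analysis was possible because the columns carry no replicate numbers. Depth limits TYR, DCT, MLANA and EDNRB in NSP, where a library held between 0 and 164 reads.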

Other observations

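The make-up of the reads of the 9 genes differed between libraries. TYRP1 held 57.5%, 49.1%, 52.5% and 33.5% of the reads of the 9 genes in SP libraries 1 to 4, and PMEL held 24.2%, 21.9%, 28.4% and 44.9%, so that PMEL exceeded TYRP1 in SP library 4 alone. KIT held 3.47%, 14.3%, 3.37% and 7.35%. In the NSP libraries KIT held between 14.2% and 31.2% and OCA2 between 5.28% and 19.6%, against 0.348% to 1.64% for OCA2 in SP. TYR held 4.85% to 5.58% of these reads in every SP library. In NSP it held 0%, 0.0714%, 0% and 2.15%.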
